A study of Mus musculus with 6 samples.

Results

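The Xlr3, Xlr4 and Xlr5 genes are 9 protein-coding copies in 3 subfamilies (Xlr3a, Xlr3b, Xlr3c, Xlr4a, Xlr4b, Xlr4c, Xlr5a, Xlr5b and Xlr5c) that lie together on the mouse X chromosome. The family was selected on these data: it was chosen by the higher levels of Xlr5a and Xlr5b in mouse embryonic stem cells (mESCs) that overexpressed Rbbp4 than in control cells. All copies of the family were then taken as members, whatever their own values, giving 9 of the 55401 genes in the files. All 9 passed the filter on low values, a mean over the 6 libraries of at least 0.5 TPM, the unit of transcript abundance scaled for length and library total.

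Expression was measured by RNA-seq of poly(A) RNA in 46C cells, a line of mESCs, in 3 groups of 2 libraries. By the labels, the control cells stably expressed the biotin tag alone, the Rbbp4 OE cells stably expressed biotin-Rbbp4 and the Rbbp7 OE cells stably expressed biotin-Rbbp7, with no treatment in any group. By the study's methods, lines of these 3 kinds carried lentiviral biotin ligase (BirA) and received the tag vector with or without the cDNA by lentivirus. They were selected with puromycin. The methods give serum, LIF and the inhibitors Chir99021 and PD0325901 as the medium of 46C cells. They do not describe RNA-seq of these lines, so that the libraries came from them is taken from the labels. No source used here says that the libraries of a group came from separate cultures, so the spread between them may be technical, and p-values measure that spread only. RBBP4 and RBBP7 are closely related histone-binding proteins found in several chromatin complexes.

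The Xlr genes take their name from X-linked, lymphocyte-regulated transcripts. Their proteins carry a Cor1 domain, which they share with SYCP3, a protein of the axis of meiotic chromosomes, and members of the wider family are known from germ cells and lymphoid cells. Xlr3b, Xlr4b and Xlr4c are known as imprinted genes of the mouse brain, expressed mainly from the maternal X chromosome. The genes arose by duplication, so copies of a subfamily are alike in sequence and short reads cannot always be assigned to 1 of them.

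In the GENCODE annotation of GRCm38, the 9 genes span 218632 bp, from position 73074345 to 73292976 of chromosome X. From left to right they begin with Xlr4a, Xlr3a and Xlr5a, go on with Xlr5b, Xlr3b and Xlr4b, and end with Xlr4c, Xlr3c and Xlr5c. Each is about 8 to 11 kb long except Xlr5a, which is annotated over 185342 bp because some of its 4 annotated transcripts reach the right end of Xlr5c. Xlr5b, Xlr3b and Xlr4b lie on the + strand and the other 6 on the - strand.

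Promoter windows from RefSeq, from 250 bases before to 50 after the annotated start on GRCm38.p6, were available for all 9 genes. They are shown for 1 copy of Xlr3, 1 copy of Xlr4 and both Xlr5 genes that led to the choice of the family, because the subfamilies differed in size of change. Xlr3c lies at chrX:73265341-73265640 (- strand), Xlr4b at chrX:73214083-73214382 (+ strand), Xlr5a at chrX:73117653-73117952 (- strand) and Xlr5b at chrX:73148591-73148890 (+ strand). Each is printed 5′ to 3′ on the strand of its gene, and capitals mark CCAAT, the core of the CCAAT box, and CGGAAG, the core bound by ETS factors, on either strand.
Xlr3c: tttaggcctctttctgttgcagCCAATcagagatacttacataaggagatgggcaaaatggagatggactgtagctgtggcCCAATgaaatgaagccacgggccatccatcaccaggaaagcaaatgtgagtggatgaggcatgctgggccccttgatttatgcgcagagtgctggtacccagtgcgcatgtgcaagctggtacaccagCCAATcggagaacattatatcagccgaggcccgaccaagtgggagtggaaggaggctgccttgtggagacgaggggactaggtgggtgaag
Xlr4b: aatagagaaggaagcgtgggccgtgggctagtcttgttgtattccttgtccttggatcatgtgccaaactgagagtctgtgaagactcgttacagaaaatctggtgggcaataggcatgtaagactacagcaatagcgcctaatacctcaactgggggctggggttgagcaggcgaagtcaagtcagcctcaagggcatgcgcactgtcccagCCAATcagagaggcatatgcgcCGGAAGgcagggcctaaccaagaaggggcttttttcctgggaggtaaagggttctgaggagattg
Xlr5a: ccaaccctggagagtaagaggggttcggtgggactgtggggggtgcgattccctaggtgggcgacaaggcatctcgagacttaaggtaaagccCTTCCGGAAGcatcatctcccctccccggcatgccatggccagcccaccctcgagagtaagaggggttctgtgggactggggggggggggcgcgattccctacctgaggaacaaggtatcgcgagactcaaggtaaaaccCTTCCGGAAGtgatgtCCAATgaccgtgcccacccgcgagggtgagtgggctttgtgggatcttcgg
Xlr5b: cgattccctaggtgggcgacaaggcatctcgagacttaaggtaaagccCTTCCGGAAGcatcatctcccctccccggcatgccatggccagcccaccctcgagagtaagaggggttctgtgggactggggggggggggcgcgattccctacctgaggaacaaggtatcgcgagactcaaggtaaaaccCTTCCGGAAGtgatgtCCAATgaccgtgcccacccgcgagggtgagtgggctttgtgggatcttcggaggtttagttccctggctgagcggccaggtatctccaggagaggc

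The Xlr5a and Xlr5b windows held the same sequence. When 1 window was shifted against the other by 45 bases, they were identical over all 255 bases of overlap. The Xlr4 windows matched at 91.8% to 98.1% of bases under the best shift without gaps, and Xlr3b and Xlr3c at 91.1%, while Xlr3a matched the other Xlr3 windows at 54.3% and 57.6%. Windows of different subfamilies matched at 29.2% to 35.9%. The RefSeq start of Xlr5a lies 175274 bp from the right end of the gene in GENCODE, where the gene begins on the - strand. The RefSeq start of Xlr5c lies 2461 bp from the gene's start in GENCODE. The Xlr5c window matched those of Xlr5a and Xlr5b at only 33.2% and 34.3%, so it covers another stretch of the gene.

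The motifs in capitals were picked after the sequences had been read. Several windows are near-copies of each other, as given above, so counts of windows are not counts of independent sequences. CCAAT was found in 8 of the 9 windows, all but that of Xlr5c, and in 37.4% of 32851 promoter windows. In Xlr4b it began 37 bases before the start site and in Xlr3c 41 bases before it. CGGAAG was found in 5 of 9 windows, those of Xlr4a, Xlr4b, Xlr4c, Xlr5a and Xlr5b, against 16.9% of all windows. In Xlr5a and Xlr5b it lay in the palindrome CTTCCGGAAG, which holds the core on both strands in overlap and occurred at 2 places in each window. This palindrome was found in 55 of the 32851 windows (0.167%). Both Xlr5 windows had 16 CpG dinucleotides, against a median of 7 over all windows, 5 to 7 in Xlr3, 7 or 8 in Xlr4 and 1 in Xlr5c. Some further motifs were searched on both strands and were in none of the 9 windows: the E-box CACGTG, found in 7.15% of all windows, the E2F core GCGGGA, found in 20%, and the TATA box TATAAA, found in 13.6%.

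The overexpressed genes were measured first as a check of the labels. Rbbp4 had 146.02 and 147.0 TPM in the 2 controls, 269.97 and 271.2 TPM with Rbbp4 OE and 143.92 and 142.66 TPM with Rbbp7 OE. Rbbp7 had 238.55 and 237.14 TPM in the 2 controls, 207.58 and 217.48 TPM with Rbbp4 OE and 724.74 and 748.06 TPM with Rbbp7 OE. Each gene was highest in both libraries of its own line, with no overlap. The stem cell markers Pou5f1, Sox2, Nanog, Zfp42, Esrrb and Klf4 were expressed in every library and summed to between 3253 and 3502 TPM. Of the 9 lymphocyte markers, Ms4a1 and Rag1 were listed at 0 throughout and the sum was at most 2.08 TPM in any library, so the Xlr transcripts were measured in cells with lymphocyte markers near 0.

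How far reads can tell the copies apart was examined next. Every distinct stretch of 100 bases in the annotated transcripts of each copy was searched in all other transcripts. The share found in another gene was 24.4% for Xlr3a, 35.1% for Xlr3b and 46.7% for Xlr3c, 59.9% for Xlr4a, 38% for Xlr4b and 51.9% for Xlr4c, and 69.1% for Xlr5a, 81.3% for Xlr5b and 66.7% for Xlr5c. Sharing between subfamilies was at most 4.3% of a gene's stretches. Most of the sharing was with other copies of the same subfamily, which held 21.9% (Xlr3a) to 81.3% (Xlr5b) of a gene's stretches. Annotated Xlr pseudogenes of the same subfamily held 1.01% (Xlr3c) to 13.9% (Xlr5c), in part the same stretches. Values of single copies, those of Xlr5 most of all, therefore depend on how the authors' software divided shared reads, and the subfamily sums do so less.

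**Figure D1:**
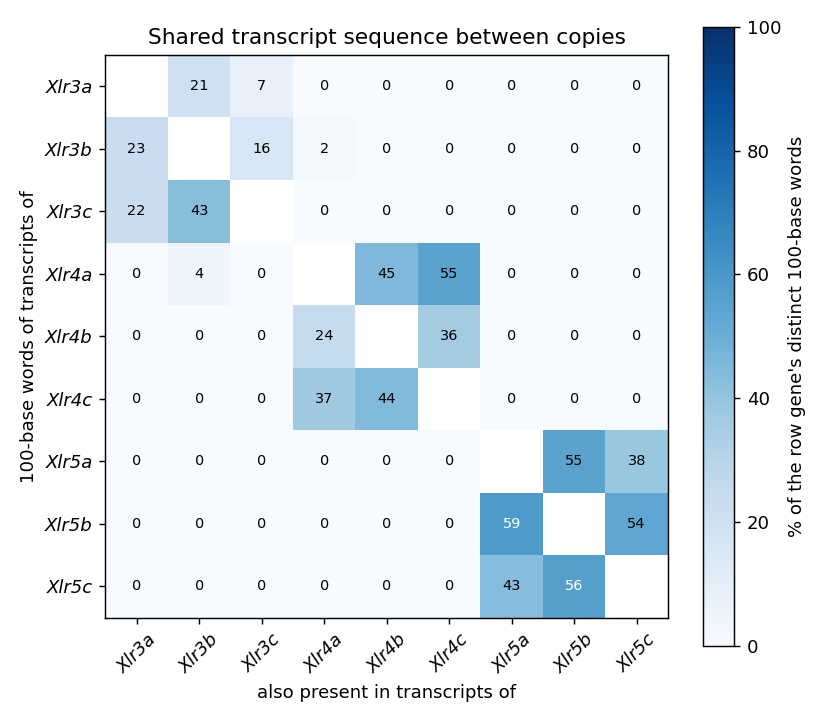
Share of each gene's distinct 100-base stretches of transcript sequence (rows) that also occur in transcripts of each other copy (columns), in percent of the row gene's stretches. The shared sequence falls in 3 blocks along the diagonal, 1 for each subfamily; Xlr5b shared 58.9% of its stretches with Xlr5a and none with any Xlr3 or Xlr4 gene.

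In control mESCs the family was expressed at low to moderate levels. Xlr3a was the highest member, with 19.77 and 22.15 TPM, and Xlr5c the lowest, with 1.17 and 0.93 TPM. The family sum was 77.85 and 75.63 TPM. Of it, the Xlr3 genes made up 59.5% and 61.3%, the Xlr4 genes 29.5% and 28.3%, and the Xlr5 genes 11.0% and 10.4%.

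Within Xlr3, all copies had higher TPM in both overexpression lines than in control. Xlr3a had 30.42 and 35.77 TPM with Rbbp4 OE and 32.46 and 27.91 TPM with Rbbp7 OE, against its 19.77 and 22.15 TPM in control. Xlr3b, 1 of the copies imprinted in brain, had 11.49 and 8.97 TPM in the 2 controls, 22.90 and 20.36 TPM with Rbbp4 OE and 17.92 and 16.99 TPM with Rbbp7 OE. Xlr3c had 15.03 and 15.26 TPM in the 2 controls, 31.59 and 33.84 TPM with Rbbp4 OE and 28.36 and 30.97 TPM with Rbbp7 OE. Neither overexpression line overlapped with control in any Xlr3 gene. Of all 14156 genes that passed the filter, both libraries lay above both controls in 20.8% with Rbbp4 OE and 21.2% with Rbbp7 OE. The 2 lines overlapped each other in Xlr3a.

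The Xlr4 copies were less uniform. Xlr4a had 10.56 and 11.89 TPM in the 2 controls, 19.20 and 11.05 TPM with Rbbp4 OE and 14.41 and 12.35 TPM with Rbbp7 OE. Its higher mean in Rbbp4 OE rested on replicate 1, and replicate 2 lay between the controls. Without replicate 1 its log2 difference from control was -0.0187, against 0.354 with it. Xlr4b, also imprinted in brain, had 4.92 and 4.15 TPM in the 2 controls, 13.03 and 13.95 TPM with Rbbp4 OE and 6.22 and 9.56 TPM with Rbbp7 OE, with no overlap between any 2 groups. Xlr4c had 7.49 and 5.33 TPM in the 2 controls, 11.70 and 15.12 TPM with Rbbp4 OE and 7.30 and 10.20 TPM with Rbbp7 OE, so that Rbbp7 OE overlapped with control.

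Xlr5a had 4.28 and 3.31 TPM in the 2 controls, 16.50 and 17.62 TPM with Rbbp4 OE and 13.74 and 8.76 TPM with Rbbp7 OE. Xlr5b had 3.14 and 3.64 TPM in the 2 controls, 13.61 and 11.70 TPM with Rbbp4 OE and 6.60 and 8.55 TPM with Rbbp7 OE. Xlr5c had 1.17 and 0.93 TPM in the 2 controls, 3.19 and 3.10 TPM with Rbbp4 OE and 2.58 and 1.80 TPM with Rbbp7 OE. All 3 copies had the same order without overlap, with Rbbp4 OE above Rbbp7 OE and Rbbp7 OE above control. For Xlr5a and Xlr5b, the choice of the family had set Rbbp4 OE above control. Of all genes that passed the filter, 16.1% had both Rbbp4 OE libraries above both Rbbp7 OE libraries. The share with the full order of 3 groups was not counted. In these bulk samples, more cells that express a gene and more RNA per cell cannot be told apart.

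**Figure D2:**
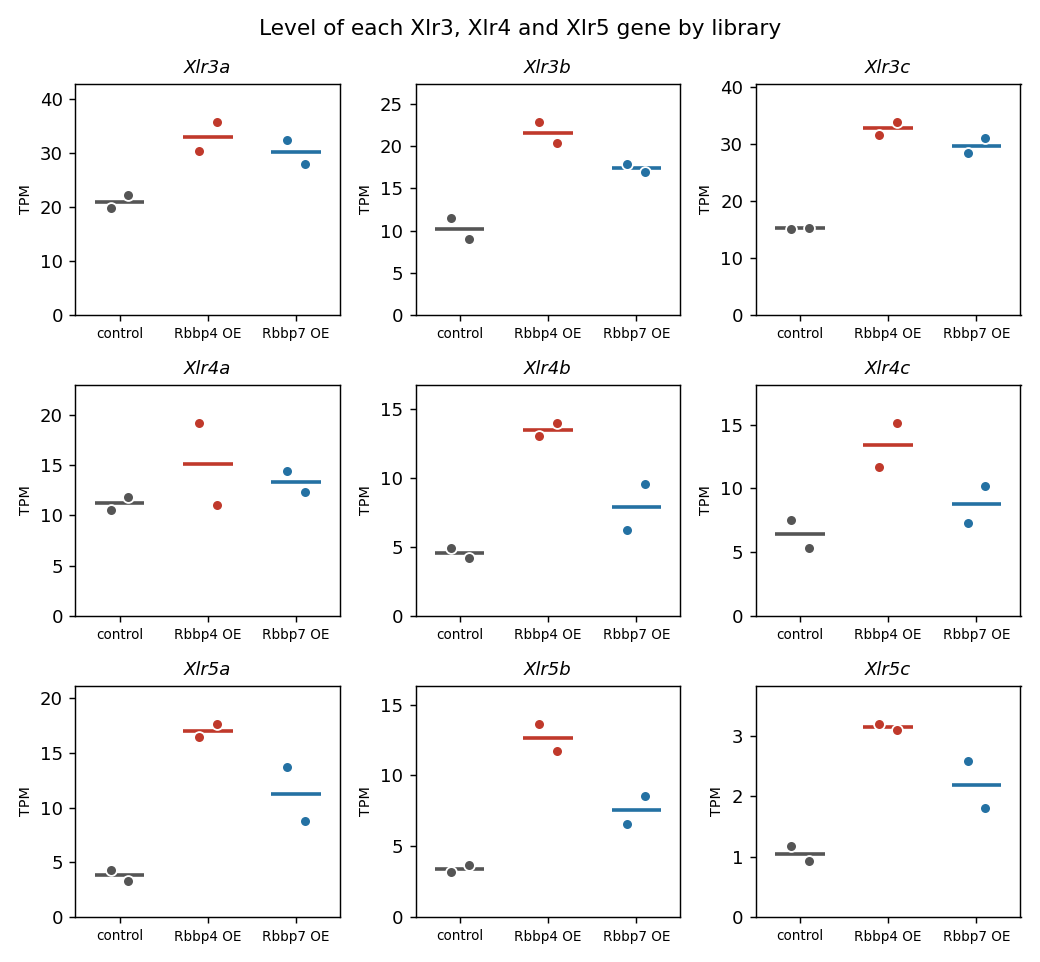
TPM of each of the 9 genes (y axes from 0, own scale per gene) in control, Rbbp4 OE and Rbbp7 OE; points are single libraries, replicate 1 to the left, and bars are group means. The control libraries are the lowest group by mean for every gene, and the Rbbp4 OE points of Xlr4a are split between 19.20 and 11.05 TPM.

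Sums of TPM were formed for each subfamily because the copies share reads. The Xlr3 sum was 46.29 and 46.38 TPM in the 2 controls, 84.91 and 89.97 TPM with Rbbp4 OE and 78.74 and 75.87 TPM with Rbbp7 OE. The Xlr4 sum was 22.97 and 21.37 TPM in the 2 controls, 43.93 and 40.12 TPM with Rbbp4 OE and 27.93 and 32.11 TPM with Rbbp7 OE. The Xlr5 sum was 8.59 and 7.88 TPM in the 2 controls, 33.30 and 32.42 TPM with Rbbp4 OE and 22.92 and 19.11 TPM with Rbbp7 OE. In each sum the 3 groups were separate, with the same order as in the Xlr5 copies.

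The sums varied less between libraries of a group than the copies did. On the log2(TPM + 1) scale the within-group SD was 0.040 for the Xlr3 sum against 0.064 to 0.151 for its copies. It was 0.103 for the Xlr4 sum against 0.241 to 0.322 for its copies, and 0.113 for the Xlr5 sum against 0.161 to 0.273. For the sum of all 9 genes it was 0.020. The division within Xlr4 moved most, since Xlr4a took 43.7% of the Xlr4 sum in replicate 1 of Rbbp4 OE and 27.5% in replicate 2.

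**Figure D3:**
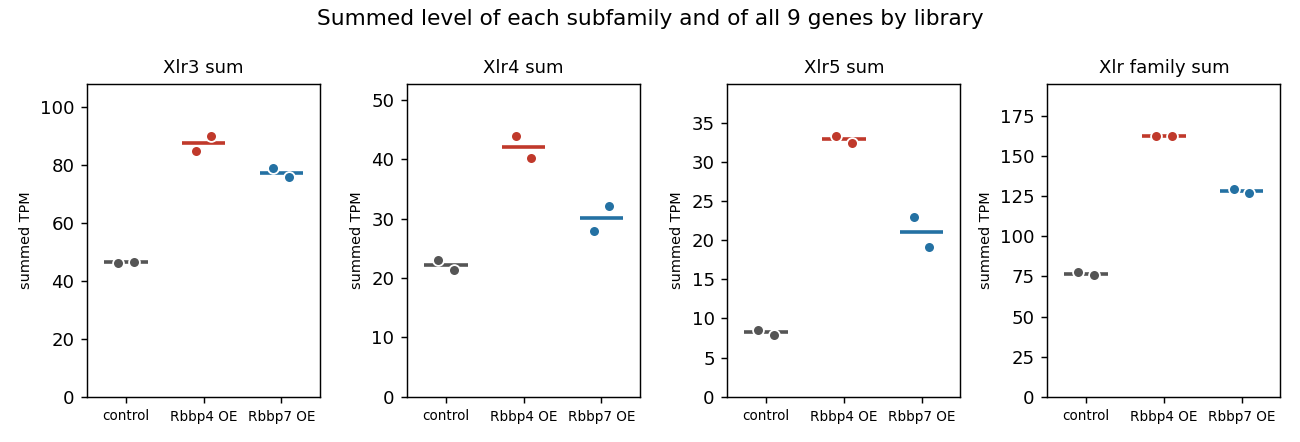
Summed TPM of the Xlr3, Xlr4 and Xlr5 genes and of all 9 genes (y axes from 0) in control, Rbbp4 OE and Rbbp7 OE; points are single libraries and bars are group means. In all 4 panels both Rbbp4 OE libraries lie above both Rbbp7 OE libraries, which lie above both controls.

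Rbbp4 OE against control is the contrast by which the family was chosen, so its values are given as a description. The family sum was 76.7 TPM ± 1.57 (SD, n = 2) in control. With Rbbp4 OE it was 162.3 TPM ± 0.262 (SD, n = 2), 2.12-fold higher. By means, the Xlr5 sum was 3.99-fold higher, the Xlr3 sum 1.89-fold and the Xlr4 sum 1.90-fold. The share of the Xlr5 genes in the family sum was 20.5% and 19.9% in Rbbp4 OE, against 11.0% and 10.4% in control. On the log2(TPM + 1) scale, where changes of low genes appear smaller than they are, the differences were 1.92 for Xlr5a, 1.64 for Xlr5b, 1.39 for Xlr4b and 0.35 to 1.06 for the other 6 copies. The median over the 9 copies was 1.02, and that over all 14156 genes tested was -0.08.

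A gene was called where its Benjamini-Hochberg adjusted p in the limma fit of all 14156 tested genes was under 0.01 and its fold change over 2. In Rbbp4 OE against control, 3 of the 9 members (Xlr3c, Xlr5a and Xlr5b) were called, beside 0.516% of all tested genes. Both libraries of Rbbp4 OE lay above both controls in 8 members, all but Xlr4a, as they did in 20.8% of all tested genes. With any 1 of the 6 libraries left out, 0 members were called. Since the contrast chose the family, nothing is read from these counts.

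Rbbp7 OE against control is the contrast in which the members were tested, although it shares its controls with the former. The choice favoured low control values of Xlr5a and Xlr5b, which can raise differences from control here too. The p-values and intervals of this contrast are therefore not independent of the choice. The family sum was 128.3 TPM ± 1.77 (SD, n = 2) in Rbbp7 OE, 1.67-fold that of control. By means, the Xlr5 sum was 2.55-fold, the Xlr3 sum 1.67-fold and the Xlr4 sum 1.35-fold that of control. The Xlr5 genes made up 17.7% and 15.0% of the family sum in Rbbp7 OE.

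No member passed the call rule in limma, which called 0.0353% of all tested genes in this contrast. At an unadjusted p under 0.05 there were 7 members of 9, against 15.4% of all tested genes. The member with the lowest adjusted p was Xlr3c, at 0.92 on the log2 scale (SE 0.089, limma adjusted p = 0.0289). The member with the highest log2 fold change was Xlr5a, with 1.33 (SE 0.219, limma adjusted p = 0.0816), followed by Xlr5b with 0.96 (SE 0.167, limma adjusted p = 0.0926). The other 6 members had log2 fold changes of 0.23 to 0.73 and limma adjusted p of 0.107 to 0.709. The 95% intervals of Xlr4a, -0.36 to 0.83, and Xlr4c, -0.15 to 0.95, included 0.

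Both libraries of Rbbp7 OE lay above both controls in 8 of 9 members, all but Xlr4c, against 21.2% of all tested genes. The median log2 fold change over the 9 members was 0.66, and that over all tested genes was -0.0037. Members share reads and controls, so these counts are not independent of each other or of the values by which the family was chosen.

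The sums also missed the call rule. The family sum was higher by 0.73 on the log2 scale (SE 0.053, limma adjusted p = 0.0129), with adjusted p of 0.00468 to 0.121 over the alternatives, but its fold stayed under 2. The Xlr5 sum, 1.25 on the log2 scale (SE 0.116, 95% interval 0.97 to 1.53), passed the fold but not the adjusted p, which was 0.0255 in limma and 0.00934 to 0.187 over the alternatives. It was called when only genes with a mean of at least 5 TPM were tested. The Xlr3 sum had 0.73 (SE 0.064, limma adjusted p = 0.0223) and the Xlr4 sum 0.42 (SE 0.102, limma adjusted p = 0.167).

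The 2 overexpression lines were set side by side as a description, because the Rbbp4 OE libraries chose the family. The Xlr5 sum was 1.56-fold higher in Rbbp4 OE than in Rbbp7 OE by means, the Xlr4 sum 1.40-fold and the Xlr3 sum 1.13-fold. On the log2 scale all 9 members were higher in Rbbp4 OE, by 0.12 for Xlr4a to 0.73 for Xlr4b, with a median of 0.39. The value of Xlr4b was 0.46 without replicate 1 of Rbbp7 OE and 1.00 without replicate 2. That of Xlr5a, 0.59 with all libraries, was 0.89 and 0.29. Both Rbbp4 OE libraries lay above both Rbbp7 OE libraries in 7 members, all but Xlr3a and Xlr4a, as in 16.1% of all tested genes. No member met the call rule between the lines, beside 0.0494% of all tested genes, and nothing is read from this count. By mean TPM, the Xlr3 sum in Rbbp7 OE lay nearer to Rbbp4 OE than to control, the Xlr4 sum nearer to control and the Xlr5 sum about midway.

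Genes around the family on chromosome X were then examined. Within 1 Mb of the 9 genes, 77 other genes were annotated, of which 26 were listed at 0 in every library and 31 had a mean of at least 0.5 TPM. None of the 31 was called in any of the 3 contrasts by limma, and 12, 6 and 3 had an unadjusted p under 0.05 when Rbbp4 OE was set against control, Rbbp7 OE against control, and the overexpression lines against each other. Over all tested genes the shares at an unadjusted p under 0.05 were 29.6%, 15.4% and 19.0% in the same order. Outside the span of the family the median log2 fold change over 28 neighbours was -0.05 in Rbbp4 OE and 0.06 in Rbbp7 OE, beside -0.08 and -0.0037 over all tested genes. Bgn, an extracellular matrix gene to the right of the family, stood at 30.92 TPM in replicate 1 of Rbbp7 OE and at no more than 0.42 TPM in the other libraries.

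Of the 5 other genes inside the span, 3 had a mean of at least 0.5 TPM, and they were singled out after their values were seen. Gm14685 begins at 73117047 on the + strand and DXBay18 ends at 73149450 on the - strand, so each runs away from an Xlr5 gene on the opposite strand, and the promoter windows of Xlr5a and Xlr5b lie inside them. Gm14685 had 1.62 and 0.98 TPM in the 2 controls, 6.21 and 6.22 TPM with Rbbp4 OE and 2.49 and 4.53 TPM with Rbbp7 OE. DXBay18 had 0.75 and 0.92 TPM in the 2 controls, 5.94 and 3.87 TPM with Rbbp4 OE and 4.25 and 2.27 TPM with Rbbp7 OE. In both, neither overexpression line overlapped with control. Over all tested genes, both libraries lay above both controls in 20.8% with Rbbp4 OE and 21.2% with Rbbp7 OE.

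In Rbbp4 OE against control the log2 fold changes were 1.66 for Gm14685 (SE 0.267, limma adjusted p = 0.0195) and 1.67 for DXBay18 (SE 0.293, limma adjusted p = 0.0237). In Rbbp7 OE against control they were 0.95 (SE 0.267, limma adjusted p = 0.2) and 1.18 (SE 0.293, limma adjusted p = 0.172). None passed the call rule. Gm14685 and DXBay18 are near-copies of each other, sharing 92.7% and 92.8% of their 100-base stretches, so the division of reads between them is uncertain. They also shared stretches with other genes, most with Gm5639 (56.6% and 53.2%). Only 3.83% and 7.24% occurred in no other gene, so their joint level also depends on how shared reads were divided. Neither shared a stretch with any Xlr gene on either strand.

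F8a, between Xlr4b and Xlr4c, encodes a huntingtin-associated protein and shared no 100-base stretch with any other gene. It had 2.92 and 2.41 TPM in the 2 controls, 2.47 and 2.39 TPM with Rbbp4 OE and 2.30 and 2.18 TPM with Rbbp7 OE. Its log2 fold changes were -0.09 (SE 0.169) and -0.17 (SE 0.169), with limma adjusted p of 0.761 and 0.681. Not every expressed gene inside the span thus had the higher values of the Xlr genes.

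The nearest expressed gene on the left was Pnma5, with 27.28 and 25.31 TPM in the 2 controls, 43.60 and 44.16 TPM with Rbbp4 OE and 31.57 and 33.75 TPM with Rbbp7 OE. Its log2 fold change was 0.72 in Rbbp4 OE (SE 0.081, limma adjusted p = 0.00905), under the fold needed for a call, and 0.30 in Rbbp7 OE (SE 0.081, limma adjusted p = 0.186). On the right it was Zfp275, a zinc finger gene, with log2 fold changes of -0.32 and -0.11 (SE 0.204 for both) and limma adjusted p of 0.352 and 0.854.

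**Figure D4:**
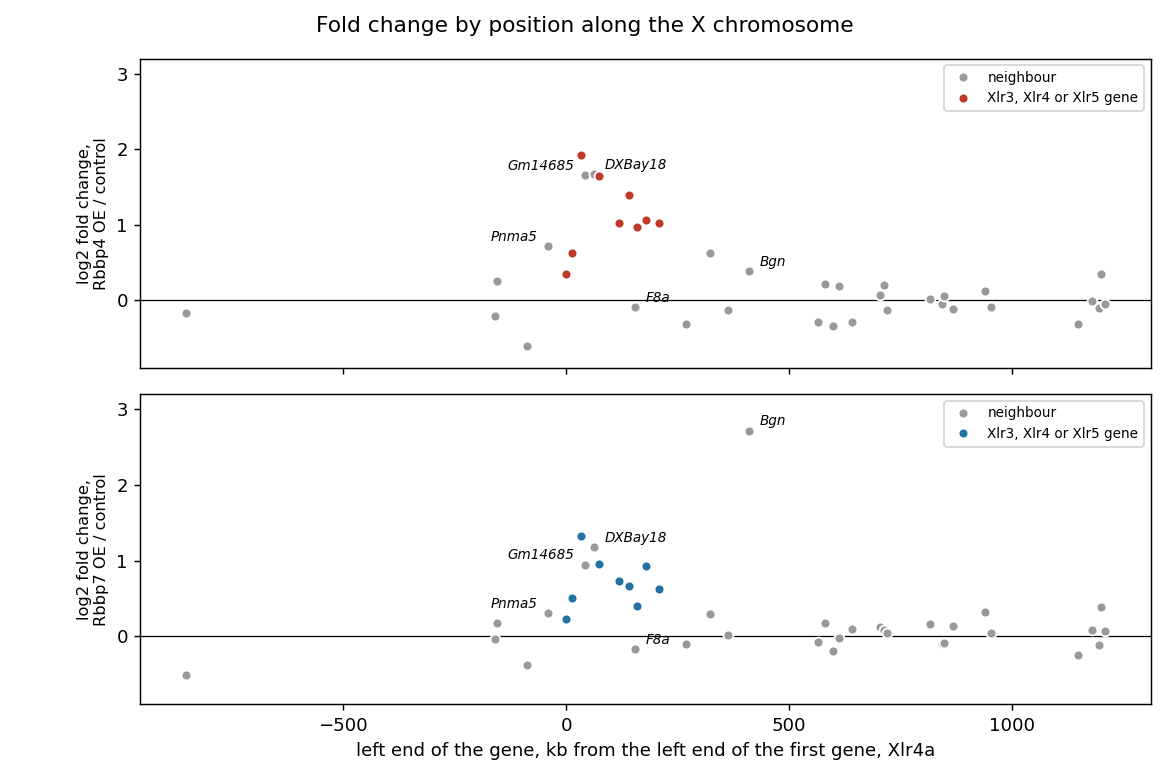
Log2 fold change against control on the log2(TPM + 1) scale (y axis) in Rbbp4 OE (top) and Rbbp7 OE (bottom) by position of the gene's left end, in kb from the left end of Xlr4a (x axis), for the 9 Xlr genes (coloured) and 31 neighbours (grey). Gm14685 and DXBay18 lie among the Xlr genes in height, F8a lies near 0, and the high value of Bgn in Rbbp7 OE comes from replicate 1.

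Relatives of the Xlr proteins elsewhere in the genome gave no call. Slx, Slxl1 and Sly, germ cell relatives on the sex chromosomes, were listed at 0 in all libraries. Xlr, the founding member, had 2.67 and 2.37 TPM in the 2 controls, 3.80 and 2.32 TPM with Rbbp4 OE and 1.43 and 1.60 TPM with Rbbp7 OE. Its log2 fold changes of 0.18 and -0.48 (SE 0.226 for both) had limma adjusted p of 0.637 and 0.379. Sycp3 had 5.95 and 6.45 TPM in the 2 controls, 11.16 and 10.68 TPM with Rbbp4 OE and 6.14 and 7.55 TPM with Rbbp7 OE. Its log2 fold change was 0.73 in Rbbp4 OE (SE 0.138, limma adjusted p = 0.029) and 0.12 in Rbbp7 OE (SE 0.138, limma adjusted p = 0.741).

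Of 20 genes of the synaptonemal complex and the meiotic chromosome axis, 19 were matched by name and 13 had a mean of at least 0.5 TPM. None was called in any contrast by limma, with 3, 4 and 1 at an unadjusted p under 0.05 in the 3 contrasts in the order above, beside 29.6%, 15.4% and 19.0% of all tested genes. Over the 13 the median difference on the log2 scale was -0.11 for Rbbp4 OE and -0.28 for Rbbp7 OE, against 1.02 and 0.66 for the Xlr genes. Syce2, a protein of the central element of the complex and the highest of the list, had 71.60 and 62.83 TPM in the 2 controls, 52.66 and 48.83 TPM with Rbbp4 OE and 50.56 and 47.25 TPM with Rbbp7 OE.

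A further list held 17 regulators of silent germline genes (DNA methylation and demethylation, H3K9 methylation and the PRC1.6 repressor). All 17 were expressed and none was called in any contrast. At an unadjusted p under 0.05 there were 5, 2 and 2, beside the same shares of all tested genes. Their log2 fold changes lay between -0.39 and 0.25 in Rbbp4 OE and between -0.33 and 0.37 in Rbbp7 OE. The highest by level was Trim28, a corepressor of zinc finger proteins, with 1625.63 and 1538.23 TPM in the 2 controls, 1410.74 and 1403.43 TPM with Rbbp4 OE and 1453.88 and 1458.02 TPM with Rbbp7 OE.

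The summed level of 6 germ cell markers followed the same order of groups as the Xlr sums. It was 21.58 and 23.27 TPM in the 2 controls, 41.21 and 40.41 TPM with Rbbp4 OE and 25.59 and 29.78 TPM with Rbbp7 OE. Stra8, a gene of meiotic entry, had 2.98 and 2.72 TPM in the 2 controls, 8.44 and 9.87 TPM with Rbbp4 OE and 4.15 and 5.34 TPM with Rbbp7 OE. Dmrt1, a transcription factor of the germ line, had 5.32 and 6.32 TPM in the 2 controls, 14.29 and 12.73 TPM with Rbbp4 OE and 6.97 and 8.83 TPM with Rbbp7 OE. Ddx4, Dazl and Mael stayed at 1.0 to 4.35 TPM in every library, and their Rbbp4 OE libraries overlapped with the controls. Sycp3, given above, is also in this sum. None of the 6 was at 0 and none was called. In Rbbp4 OE against control, Stra8 and Dmrt1 passed the fold but not the adjusted p. Their log2 fold changes were 1.4 (SE 0.167, limma adjusted p = 0.0103) and 1.09 (SE 0.157, limma adjusted p = 0.0156). The part of the 6 markers in the Xlr values was not tested.

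Markers of other cell types were low. The 5 trophoblast markers summed to 10.97 to 15.18 TPM and the 5 primitive endoderm markers to at most 1.28 TPM. The trophoblast markers moved in different directions. Eomes had 5.32 and 6.01 TPM in the 2 controls. It had 7.59 and 8.12 TPM with Rbbp4 OE and 10.57 and 11.19 TPM with Rbbp7 OE. Cdx2 had 5.49 and 4.88 TPM in the 2 controls. It had 2.93 and 3.7 TPM with Rbbp4 OE and 2.99 and 3.56 TPM with Rbbp7 OE. Gata3 was also lower in both lines than in control. No trophoblast marker was called. The 5 fibroblast markers summed to 4.48 and 5.59 TPM in the 2 controls, 9.09 and 11.32 TPM with Rbbp4 OE and 15.51 and 8.75 TPM with Rbbp7 OE. Postn was at 0 throughout. Thy1 had 4.13 and 5.02 TPM in the 2 controls, 8.87 and 10.8 TPM with Rbbp4 OE and 7.01 and 7.04 TPM with Rbbp7 OE. It made up most of the sum in each library except replicate 1 of Rbbp7 OE. In that replicate Col3a1 stood at 6.39 TPM, against at most 0.06 TPM in the other libraries. Without that library the log2 fold change in Rbbp7 OE was 1.12 for the Xlr5 sum and 0.72 for the family sum, against 1.25 and 0.73 with it.

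The 5 protein-coding genes most like the Xlr5 sum were sought among 12383 protein-coding genes outside the family, by Euclidean distance between log2(TPM + 1) values centred over the 6 libraries. Those given here are DXBay18, Khdc3, Arhgdig and Parp10. DXBay18 lay at a distance of 0.53. Khdc3, which encodes a protein of the oocyte's subcortical maternal complex, lay at 0.564 and had 20.30 and 17.43 TPM in the 2 controls, 46.48 and 52.17 TPM with Rbbp4 OE and 38.62 and 34.93 TPM with Rbbp7 OE. Arhgdig and Parp10, an ADP-ribosyltransferase, lay at 0.614 and 0.639. For comparison, Xlr5a lay at 0.301, Xlr5b at 0.562 and Xlr5c at 0.889 from the sum of which they are part, and Xlr4a lay farthest of the family at 1.64. The likeness describes these 6 libraries, among them those by which the family was chosen.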

How the data were processed

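RNA-seq of poly(A) RNA was measured in 6 libraries, 2 in each of 3 groups taken from the labels. By the study's methods, Trim_galore trimmed the reads, STAR aligned them to mm10 with a GENCODE annotation, and RSEM gave the expression estimates. The authors deposited 1 table of TPM per library, with 55401 genes and values to 0.01. TPM is scaled by transcript length and to a fixed total, so depth is unknown and no counting interval is given. No 2 libraries shared over 2.4% of their values above 0.

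Genes were matched by identifier without version to GENCODE M21 on GRCm38 (55141 of 55401). The annotation used by the authors was a later release. Promoter windows came from RefSeq on GRCm38.p6. The study's count model needs counts, so its thresholds were kept and limma-trend (limma 3.58.1, R 4.3.3) was run on log2(TPM + 1) for the genes whose mean TPM reached 0.5, with all 3 groups in 1 fit (3 residual and 3.103 prior degrees of freedom). For the sums, the 9 genes were replaced by 3 subfamily sums, or by 1 family sum, before the fit. The fit was tested on simulated data.

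The members and lists were chosen with earlier results of these data known. The text names the members and their sums, Rbbp4, Rbbp7, the relatives, the nearest expressed neighbour on each side, any neighbour called, called and highest genes of the meiotic and regulator lists, the markers and the 5 genes most like the Xlr5 sum, of which 1 is not reported here. Other names were picked with their values in view and are marked so in the text, as is Bgn, named for its place in a plot. Alternatives were quantile normalization, median-of-ratios scaling, leaving out each library, a replicate block, pseudocounts of 0.1 or 5, testing all genes or those with a mean TPM from 5 upward, and calls at an adjusted p under 0.05.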

Additional observations from a re-analysis of the deposited data

How the results depend on the processing

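Across 13 alternatives and 3 contrasts, 504 log2 fold changes of the members and sums were recomputed and 2 changed sign, both of Xlr4a without replicate 1 of Rbbp4 OE: -0.0187 against control (0.354 with all libraries) and -0.251 against Rbbp7 OE (0.121). Over the single libraries left out, Xlr4a ranged from -0.0187 to 0.727 against control and from -0.251 to 0.494 between the lines. No member was called in Rbbp7 OE against control under any alternative at an adjusted p under 0.01. At an adjusted p under 0.05, 0 members were called with the 0.5 TPM filter, and 1 (Xlr5a, adjusted p 0.0452) among genes with a mean of 5 TPM or more. In that contrast the Xlr5 sum was called at a mean TPM of at least 5 (1.25, adjusted p 0.00934), where 9035 genes were tested. In Rbbp4 OE against control, a pseudocount of 5 gave 0.85 for the Xlr3 sum, 1.52 for the Xlr5 sum and 1.03 for the family sum. Median-of-ratios scaling gave 1.01 for Xlr3, 1.00 for Xlr4 and 1.18 for the family, and quantile normalization 0.98, 1.00 and 1.13. Between the overexpression lines, median-of-ratios scaling gave 0.27 for Xlr3 and 0.44 for the family, and quantile normalization 0.23 for Xlr3. Leaving out a library gave 0.86 to 0.94 for the Xlr3 sum, and 1.05 to 1.09 for the family, in Rbbp4 OE against control. Between the lines it gave 0.13 to 0.22 for Xlr3 and 0.50 to 0.75 for Xlr5.

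Genes called in Rbbp4 OE against control numbered 73 (29 higher, 44 lower). Median-of-ratios scaling gave 26 higher and 23 lower. The count was 31 at a pseudocount of 5, 4 without a filter, 197 at an adjusted p under 0.05 and 0 to 37 without 1 library. In Rbbp7 OE against control it was 5, with 2 without a filter, 8 among genes of 5 TPM or more, 24 at an adjusted p under 0.05 and 0 to 2 without 1 library. Between the lines it was 7, with 4 without a filter, 23 at an adjusted p under 0.05 and 5 to 37 without 1 library. The cause was not tested.

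Same-numbered libraries did not deviate together (correlations -0.026, 0.034 and -0.031). With a replicate block the family sum in Rbbp7 OE against control stayed at 0.73 (adjusted p 0.0546), no member was called, and the calls in Rbbp4 OE against control numbered 4. Depth is unknown, and 2 libraries a group limit the precision.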
